A study of Caenorhabditis elegans with 6 samples.

Results

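The digestive and lysosomal proteases of Caenorhabditis elegans examined here are 38 genes of 18999 features on the array. They are all genes with a probe whose symbol begins with asp-, cpr-, cpl-, cpz-, ctsa- or pcp-, together with tag-196. The rule used names alone and no measured value. It gave 14 aspartyl proteases (asp- genes), 12 cysteine proteases (cpr-, cpl-, cpz- genes and tag-196) and 12 serine carboxypeptidases (ctsa- and pcp- genes), which are given apart. A gene with several probes was represented by its brightest probe, by mean log2 intensity over arrays and channels. The reference gene table holds 42 genes that fit the rule, and asp-15, asp-16, asp-18 and asp-19 were not analysed here.

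Nematodes of strain N2 were hatched from synchronized eggs and grown at 24 °C on OP50 bacteria, on agar with a mixture of 2 organophosphate insecticides, 0.5 mg/L chlorpyrifos (CPF) and 1 mg/L diazinon (DZN), dissolved in acetone. Control nematodes were grown at the same temperature on agar with acetone alone. The labels give the age at harvest as 72 h and the stage as L3/L4, while the methods of the study name late L3 and a shorter time, so the age is not settled here. Mixture and control RNA were hybridised together on 6 two-colour arrays, 3 with the mixture in Cy5 and 3 with the mixture in Cy3. By the numbers in the scanner headers, one mixture extract was shared by 2 arrays (replicate 2 with the mixture in Cy5, replicate 1 with it in Cy3), and the p-values below measure the spread between arrays. The slides were divided here into an earlier and a later series at the largest gap in their header numbers.

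Aspartyl proteases of the cathepsin D type use a pair of aspartate residues to cut inside proteins at low pH. Cysteine proteases of the cathepsin B, L and Z types use a reactive cysteine, and serine carboxypeptidases remove amino acids from the carboxyl end. In C. elegans much of this activity lies in the lumen and the gut granules of the intestine, where bacterial food, yolk protein and endocytosed material are degraded. RNA was taken from whole nematodes, so the tissue behind a signal was not measured, and fewer cells of a type cannot be told apart from less RNA per cell. All 17 intestinal marker genes measured were well above background in both channels of all 6 arrays. Their summed intensity was 54340 to 111200 in the mixture channels and 49640 to 81420 in the control channels, with the mixture above its own control on 5 of 6 arrays. Both highest sums were on mixture in Cy5 replicate 1. There fat-5 alone had a log2 intensity of 15.04 in the mixture and 14.41 in the control channel, against medians over the arrays of 11.06 and 10.40.

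Depending on the array, 44.1 to 54.9% of mixture spots and 47.9 to 58.1% of control spots were well above background. The ratios of any pair of arrays were related across genes (not independent replicates) with r of 0.237 to 0.714, and the lowest mean r, 0.276, was that of mixture in Cy5 replicate 3. Over all features, 13.9% differed between mixture and control at an adjusted p under 0.05, 6.74% higher and 7.13% lower with the mixture. The bright set holds the 10098 features well above background in 3 or more mixture channels and in 3 or more control channels. These channels need not be of the same arrays. In the bright set 23.5% differed and 11.7% were higher.

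Many of these protease genes had higher transcript levels in nematodes on the mixture, and none passed the test for a lower level. The test called 14 of the 38 genes (36.8%) higher, 5 aspartyl proteases, 4 cysteine proteases and 5 serine carboxypeptidases. At an unadjusted p under 0.05 in the same limma fit, 19 genes were above 0 and 2, cpl-1 and pcp-5, below it. The share of all features at that unadjusted threshold was not counted, so these numbers have no background beside them. Of the 24 genes not called, 16 had a mean ratio above 0. The median log2 ratio of mixture over control was 0.25 over the 38 genes, against 0.00 over all features. It was 0.17 for the aspartyl proteases, 0.25 for the cysteine proteases and 0.22 for the serine carboxypeptidases. The ratios lay above 0 on all 6 arrays for 14 of the 38 genes, where 8.76% of all features did so, and below 0 on all 6 for 1 gene, where 8.62% did so. All 14 called genes were among the 31 genes of the bright set, in which 11.7% of features were higher.

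The changes were modest for most genes, with a mean log2 ratio of 0.32 to 0.81 for 13 of the 14 called genes, and larger for cpr-3. Direction did not depend on the scaling for the called genes: each kept a ratio above 0 under every other background correction and normalization tried. Each was also above 0 in the rest of the 24 alternatives in which it had a value. In some of these, such as the models with a block or without a dye effect, the mean ratio could not change. Calls did depend on the scaling. With arrays centred on the median and no correction for intensity, only cpr-1 and cpr-3 of the 14 stayed called, and asp-13, asp-14, cpl-1, ctsa-1.1 and pcp-2 were called lower. The median over the 38 genes was then 0.12, with 25 of them above 0. With the local background subtracted, the same 2 genes alone stayed called. Under median centring features of a mean log2 intensity of 9 to 11 had a median ratio of -0.34 and those of 13 and over -0.18, against -0.03 and -0.01 with the intensity correction.

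**Figure D1:**
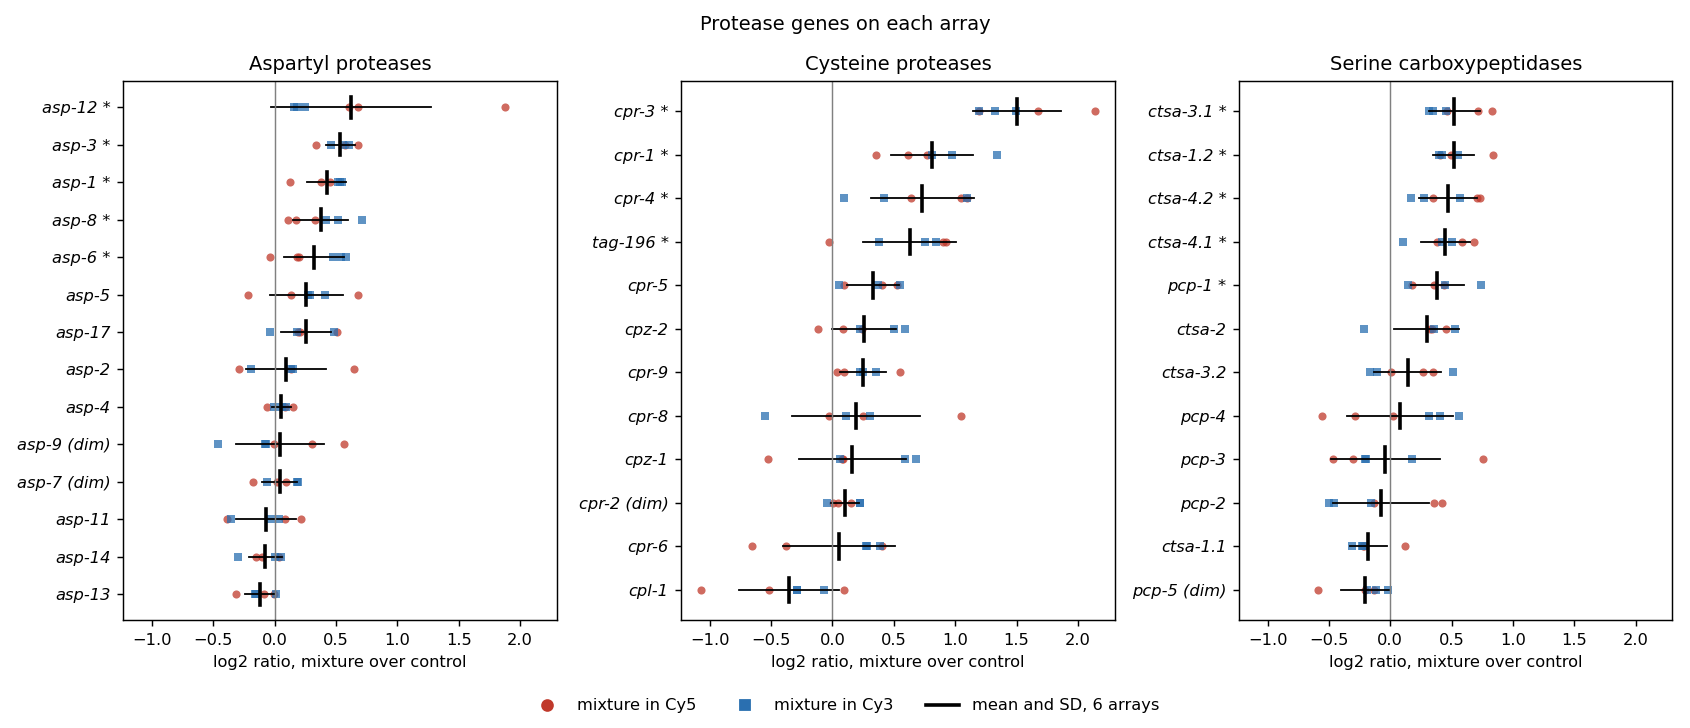
Log2 ratio of mixture over control (x axis) for each protease gene (rows) on each of the 6 arrays, circles for mixture in Cy5 and squares for mixture in Cy3, with the mean (tick) and SD (line). Asterisks mark the 14 genes called higher, "dim" marks the 4 genes not well above background in either group, and cpr-3 lies to the right of 1 on all 6 arrays.

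Among the cysteine proteases, cpr-3, cpr-1 and cpr-4, which encode cathepsin B-like enzymes, and tag-196, which encodes a cathepsin F-like enzyme, had higher levels with the mixture. Of the 12 genes, 4 were called higher (33.3%), against 6.74% of all features and 11.7% of the bright set. Over all features, 9505 of 18999 had a mean ratio above 0. None of the 12 genes was called lower, and 11 had a mean ratio above 0. The exception was cpl-1.

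cpr-3 had the highest ratio of all 38 genes on 6 of 6 arrays. Its log2 intensity had a lowest value of 8.09, a median of 9.29 and a highest of 9.85 in mixture channels, against 6.89, 7.74 and 8.08 in control channels. The groups did not overlap, though the lowest mixture value lay just above the highest control value. Such separation was found for 1 of the 38 genes and for 1.05% of all features. The ratios of cpr-3 were 1.68, 2.14 and 1.2 on the arrays with the mixture in Cy5 (replicates 1, 2 and 3) and 1.33, 1.2 and 1.49 on those with the mixture in Cy3. The mean was 1.5 ± 0.36 (SD, n = 6 arrays), a 2.84-fold difference, with an adjusted p of 0.000837.

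cpr-1, a cathepsin B-like gene known for its expression in the gut, had ratios of 0.62, 0.77 and 0.35 with the mixture in Cy5 and of 0.81, 0.97 and 1.34 with the mixture in Cy3. In log2 intensity it ranged from 13.57 to 14.97 (median 14.41) in mixture channels and from 12.80 to 13.98 (median 13.58) in control channels. The ranges overlapped, while every array had the mixture above its own control. The mean ratio was 0.81 ± 0.33 (adjusted p = 0.0042), a 1.75-fold difference.

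cpr-4 had ratios of 1.05, 1.10 and 0.64 with the mixture in Cy5 and of 0.10, 0.42 and 1.09 with the mixture in Cy3, with a mean of 0.73 ± 0.42 (adjusted p = 0.0162). Its log2 intensity ranged from 9.85 to 11.83 (median 10.90) in mixture channels and from 8.75 to 11.19 (median 10.45) in control channels. The ratio was close to 0 on mixture in Cy3 replicate 1 alone. tag-196 had a lowest ratio of -0.03, a median of 0.80 and a highest of 0.93, and a mean of 0.63 ± 0.38 (adjusted p = 0.0275). The spot had a log2 intensity of 10.17 to 11.28 in mixture channels and 9.75 to 10.43 in control channels. The lowest ratio was that of mixture in Cy5 replicate 3, and the other 5 arrays lay between 0.38 and 0.93.

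Just short of the threshold was cpr-5, another cathepsin B-like gene. Its ratio was above 0 on 6 of 6 arrays, with a lowest of 0.06, a median of 0.39 and a highest of 0.55, and averaged 0.33 ± 0.21 (adjusted p = 0.0581). In mixture channels its log2 intensity was 13.99 to 14.76, and in control channels 13.63 to 14.51. The cathepsin Z-like gene cpz-2 followed, with a lowest ratio of -0.12, a median of 0.23, a highest of 0.59 and a mean of 0.25 ± 0.26 (adjusted p = 0.093). cpr-9 was also above 0 on 6 of 6 arrays, between 0.04 and 0.55, and did not pass the test (adjusted p = 0.109).

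cpl-1, the cathepsin L gene, which is needed for yolk processing and embryonic development, had the lowest mean ratio of all 38 genes. Its ratios were -1.07, -0.52 and 0.09 where the mixture was in Cy5 and -0.29, -0.07 and -0.29 with the mixture in Cy3. The mean was -0.36 ± 0.41 (adjusted p = 0.140), and 5 of 6 arrays lay below 0. Its log2 intensity was 13.20 to 13.93 (median 13.67) in mixture channels and 13.37 to 14.68 (median 13.84) in control channels. Without mixture in Cy5 replicate 3 the fitted ratio was -0.50 and the gene was called lower (adjusted p = 0.00999). The fit averages the means of both dye orientations, which with unequal numbers of arrays is not the mean over arrays. On the 3 arrays scanned on 1 shared day the fitted ratio was -0.63, and on the 4 arrays of the later slide series -0.06. Each of these fits held 1 array with the mixture in Cy5, replicate 1 on the shared day and replicate 3 in the later series.

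cpr-6, a cathepsin B-like gene, split the arrays by slide series. On the 2 arrays of the earlier slide series, mixture in Cy5 replicates 1 and 2, its ratios were -0.66 and -0.38, and on the 4 arrays of the later series they lay between 0.28 and 0.41. The mean over the 6 arrays was 0.05 ± 0.45 (adjusted p = 0.859), and the fitted ratio of the later series was 0.36. A probe for its other transcript gave a mean of 0.07 ± 0.43. The remaining cysteine proteases were cpr-8 with a mean ratio of 0.19 ± 0.52, cpz-1 with 0.16 ± 0.44 and cpr-2 with 0.10 ± 0.12, the last not well above background on any array.

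**Figure D2:**
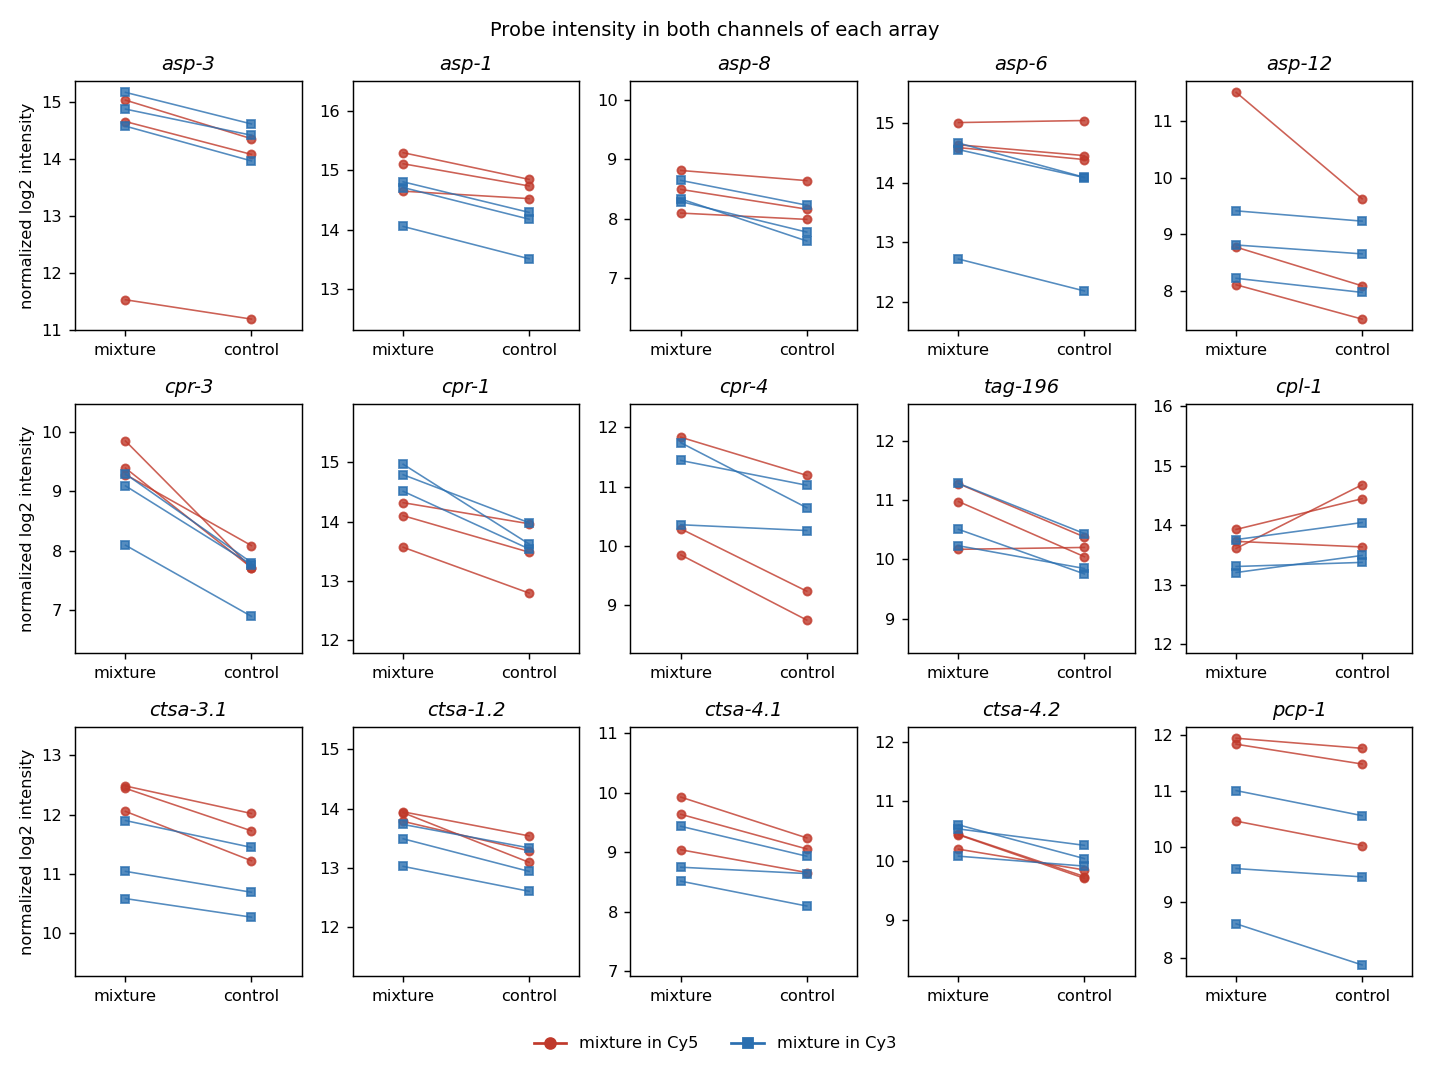
Normalized log2 intensity (y axis) of the 14 called protease genes and cpl-1 in the mixture and control channels, with a line for each of the 6 arrays, circles for mixture in Cy5 and squares for mixture in Cy3. Each panel has its own axis range, the mixture end lies above the control end on every array for 12 of the 14 called genes, and cpl-1 slopes the other way on 5 of 6 arrays.

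Among the aspartyl proteases, asp-3, asp-1, asp-8, asp-6 and asp-12 had higher levels with the mixture. These are 5 of 14 genes (35.7%), against 6.74% of all features and 11.7% of the bright set called higher. None of the 14 genes was called lower, and 11 had a mean ratio above 0, where 9505 of 18999 features did. The rest of the class lay closer to 0, between -0.12 and 0.26.

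asp-3, which encodes a lysosomal cathepsin D-like enzyme, had the closest agreement between arrays of the called genes, with ratios of 0.34, 0.68 and 0.57 with the mixture in Cy5 and of 0.46, 0.61 and 0.55 with the mixture in Cy3. The mean was 0.53 ± 0.12 (adjusted p = 0.00792), a 1.45-fold difference. Its log2 intensity was 11.53 to 15.16 (median 14.76) in mixture channels and 11.19 to 14.61 (median 14.21) in control channels. The low end of both ranges was mixture in Cy5 replicate 1, where the spot was lower in both channels than on the other arrays.

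asp-1, a gut-specific aspartyl protease gene, had ratios of 0.45, 0.37 and 0.13 with the mixture in Cy5 and of 0.53, 0.54 and 0.51 with the mixture in Cy3, with a mean of 0.42 ± 0.16 (adjusted p = 0.0146). Its log2 intensity was 14.06 to 15.30 in mixture channels and 13.51 to 14.85 in control channels, and the spot was saturated in the mixture channel of 1 array. Every array had the mixture above its own control, with mixture in Cy5 replicate 3 lowest.

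asp-8 had a lowest ratio of 0.11, a median of 0.37 and a highest of 0.71, and a mean of 0.38 ± 0.22 (adjusted p = 0.0215). asp-6, which encodes a cathepsin D-like enzyme, had -0.03, 0.34 and 0.58, and a mean of 0.32 ± 0.24 (adjusted p = 0.0277). Mixture in Cy5 replicate 3 was its only array below 0. With the 2 arrays of the shared mixture extract averaged, asp-6 was no longer called (0.32, adjusted p = 0.0529). asp-12 had the largest mean of the class, 0.62 ± 0.65 (adjusted p = 0.0427), and this rested in large part on mixture in Cy5 replicate 2. There the ratio was 1.88, while the other 5 arrays lay between 0.16 and 0.68. Without that array the fitted ratio was 0.42 (adjusted p = 0.044), the average of the means of both dye orientations.

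The asp-6, asp-12, asp-5 and asp-11 genes follow one another on chromosome V with no other gene between them in the reference gene table, so they form a cluster. The first 2 were called. asp-5 had a lowest ratio of -0.22, a median of 0.28 and a highest of 0.68, with a mean of 0.26 ± 0.30 (adjusted p = 0.191). asp-11, annotated as a pseudogene, was well above background in 1 control channel and in no mixture channel. asp-7 and asp-8 are also neighbours, and asp-7 exceeded the background threshold on no array.

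asp-17 was nearest to the threshold among the aspartyl proteases not called, with a lowest ratio of -0.04, a median of 0.20, a highest of 0.50 and a mean of 0.25 ± 0.20 (adjusted p = 0.115). Its probe was well above background in 1 mixture and 1 control channel. asp-4, which like asp-3 encodes a lysosomal cathepsin D-like enzyme, had ratios between -0.06 and 0.15 with a median of 0.07. Its mean of 0.05 ± 0.08 was among the smallest with the smallest spread of the 38 genes (adjusted p = 0.695). The log2 intensity of asp-4 was 11.92 to 13.17 in mixture channels and 11.86 to 13.02 in control channels. The remaining means were 0.09 ± 0.33 for asp-2, 0.04 ± 0.36 for asp-9, -0.08 ± 0.14 for asp-14 and -0.12 ± 0.12 for asp-13. asp-9 exceeded the background threshold on no array, and the platform table gave the asp-2 probe to another gene.

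Among the serine carboxypeptidases, the cathepsin A-like genes ctsa-3.1, ctsa-1.2, ctsa-4.1 and ctsa-4.2 and the prolyl carboxypeptidase-like gene pcp-1 had higher levels with the mixture, 5 of 12 genes (41.7%). Of all features 6.74% were called higher, and of the bright set 11.7%. None of the 12 genes was called lower, and 8 of the 12 had a mean ratio above 0, where 9505 of 18999 features did. ctsa-3.1 had ratios of 0.71, 0.46 and 0.83 with the mixture in Cy5 and of 0.45, 0.31 and 0.35 with the mixture in Cy3, with a mean of 0.52 ± 0.21 (adjusted p = 0.00939). Its log2 intensity was 10.59 to 12.48 in mixture channels and 10.27 to 12.02 in control channels. ctsa-1.2 had ratios of 0.41, 0.50 and 0.84 with the mixture in Cy5 and of 0.55, 0.42 and 0.39 with the mixture in Cy3, with a mean of 0.52 ± 0.17 (adjusted p = 0.011). The log2 intensity of ctsa-1.2 was 13.03 to 13.95 in mixture channels and 12.61 to 13.54 in control channels. Both genes were highest on mixture in Cy5 replicate 3, the array on which asp-1 and asp-6 were lowest.

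ctsa-4.2 had a lowest ratio of 0.17, a median of 0.46 and a highest of 0.73, and a mean of 0.47 ± 0.24 (adjusted p = 0.0185). ctsa-4.1 had 0.11, 0.46 and 0.69, and a mean of 0.45 ± 0.20 (adjusted p = 0.0179). pcp-1 had 0.15, 0.40 and 0.74, and a mean of 0.38 ± 0.21 (adjusted p = 0.0352). All 3 genes were above 0 on 6 of 6 arrays and lowest on mixture in Cy3 replicate 1. Closest to the threshold were ctsa-2 and pcp-5. ctsa-2 was between 0.32 and 0.53 on 5 arrays and at -0.22 on mixture in Cy3 replicate 3, with a mean of 0.30 ± 0.26 (adjusted p = 0.107). pcp-5 was below 0 on 6 of 6 arrays, between -0.59 and -0.02, with a mean of -0.21 ± 0.20 (adjusted p = 0.155), and neither of its 2 probes was well above background on any array.

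The remaining serine carboxypeptidases lay on both sides of 0. ctsa-1.1 had a mean of -0.18 ± 0.15 (adjusted p = 0.179), in the opposite direction to ctsa-1.2, with 5 of 6 arrays between -0.31 and -0.21. The means were 0.14 ± 0.27 for ctsa-3.2, 0.08 ± 0.43 for pcp-4, -0.08 ± 0.39 for pcp-2 and -0.04 ± 0.44 for pcp-3. ctsa-3.2 was well above background in 1 control channel and in no mixture channel. pcp-2 and pcp-3 are neighbours on chromosome IV.

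The number of genes called depended on single arrays. With each array left out in turn, cpr-3, cpr-1, asp-3, ctsa-3.1 and ctsa-1.2 stayed called 6 times of 6. cpr-4 lost its call without replicate 1 or replicate 2 of mixture in Cy5, or without replicate 2 of mixture in Cy3. asp-1, ctsa-4.1, ctsa-4.2 and pcp-1 lost it without any one of those 3 arrays, or without replicate 3 of mixture in Cy3. asp-12 stayed called only without mixture in Cy5 replicate 2 or 3, and asp-6, asp-8 and tag-196 only without mixture in Cy5 replicate 3. The number of all features called ranged from 535 to 4609 over the same 6 fits. A linear model of treatment alone on the channel intensities, as the study's methods describe, called none of the 38 genes after Benjamini-Hochberg adjustment and 2, cpr-3 and ctsa-4.2, at an unadjusted p under 0.01.

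**Figure D3:**
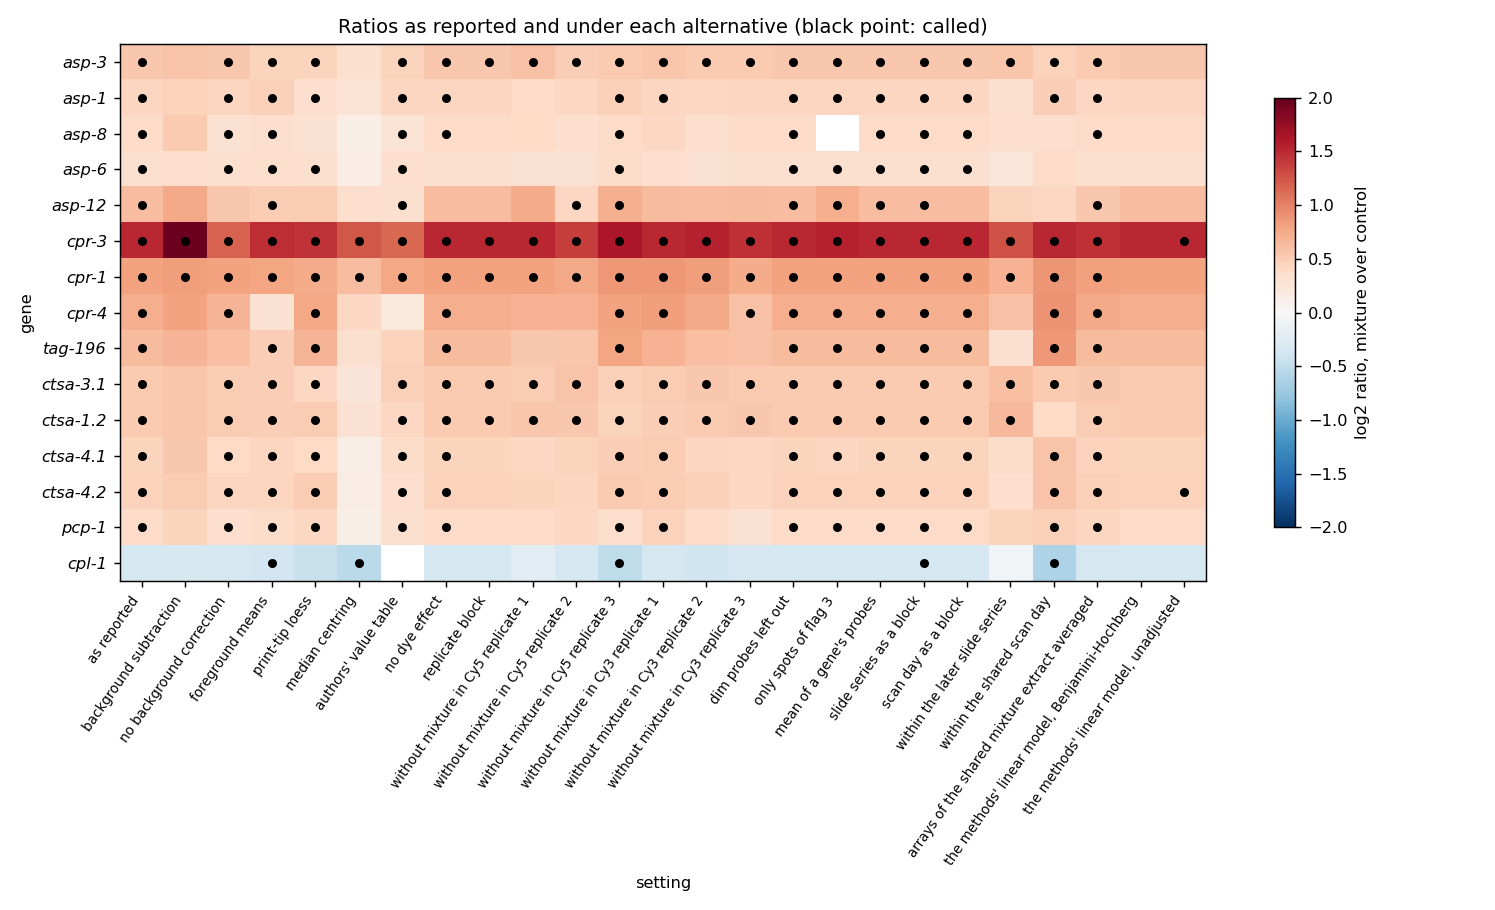
Log2 ratio of mixture over control (colour) of the 14 called protease genes and cpl-1 (rows) as reported and under 24 alternatives (columns), with a black point where the gene was called (in the last column, at an unadjusted p under 0.01). White cells had no value, the 14 genes stay on the red side in every column, and the points of cpr-3 and cpr-1 reach across nearly all columns. The models with a block or without a dye effect and the methods' linear model have the same ratios as reported.

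The class medians varied over the arrays. The median ratio of the aspartyl proteases was 0.18, 0.26 and -0.05 where the mixture was in Cy5 and 0.14, 0.13 and 0.18 with the mixture in Cy3. That of the cysteine proteases was 0.32, 0.09 and 0.20 with the mixture in Cy5 and 0.24, 0.46 and 0.49 with the mixture in Cy3. For the serine carboxypeptidases it was 0.35, 0.34 and 0.24 on the arrays with the mixture in Cy5 and 0.13, 0.31 and 0.26 on those with the dyes swapped. The cysteine proteases and serine carboxypeptidases were thus above 0 on all 6 arrays, and the aspartyl proteases on 5. In a fit to the 4 later slides the class medians were 0.05, 0.29 and 0.19, in the same order of classes. On the 3 arrays scanned on 1 shared day they were 0.13, 0.37 and 0.30. Each of these fits held 1 array with the mixture in Cy5. The earlier slide series held 2 arrays of one dye orientation and allowed no such fit.

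Markers of other tissues moved on the same arrays. Of 20 oocyte markers 18 were called lower, as were 13 of 23 sperm markers, 4 of 11 germ line markers and 6 of 6 yolk genes (vit-1 to vit-6), with median ratios of -1.33, -0.70, -0.39 and -1.64. Over all features 7.13% were called lower. The summed intensity of the oocyte list was 13000 to 59150 in mixture channels and 57750 to 88610 in control channels, with the mixture below its own control on 6 of 6 arrays. That of the yolk list was 35460 to 112000 in mixture channels and 103000 to 237300 in control channels, and that of the sperm list 127200 to 364000 in mixture channels and 357100 to 417700 in control channels. The sperm sums are limited by saturation: msp-51, msp-56 and msp-76 had saturated pixels in 6 control channels and in 1, 4 and 3 mixture channels. On mixture in Cy5 replicate 3 the median ratio of the oocyte list was -0.22, and on the other 5 arrays it was -0.69 to -2.21. The array on which the oocyte genes differed least was also the one on which the aspartyl protease median was below 0. On that array the cysteine protease and serine carboxypeptidase medians were 0.20 and 0.24. The part of these markers in the protease ratios was not tested.

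**Figure D4:**
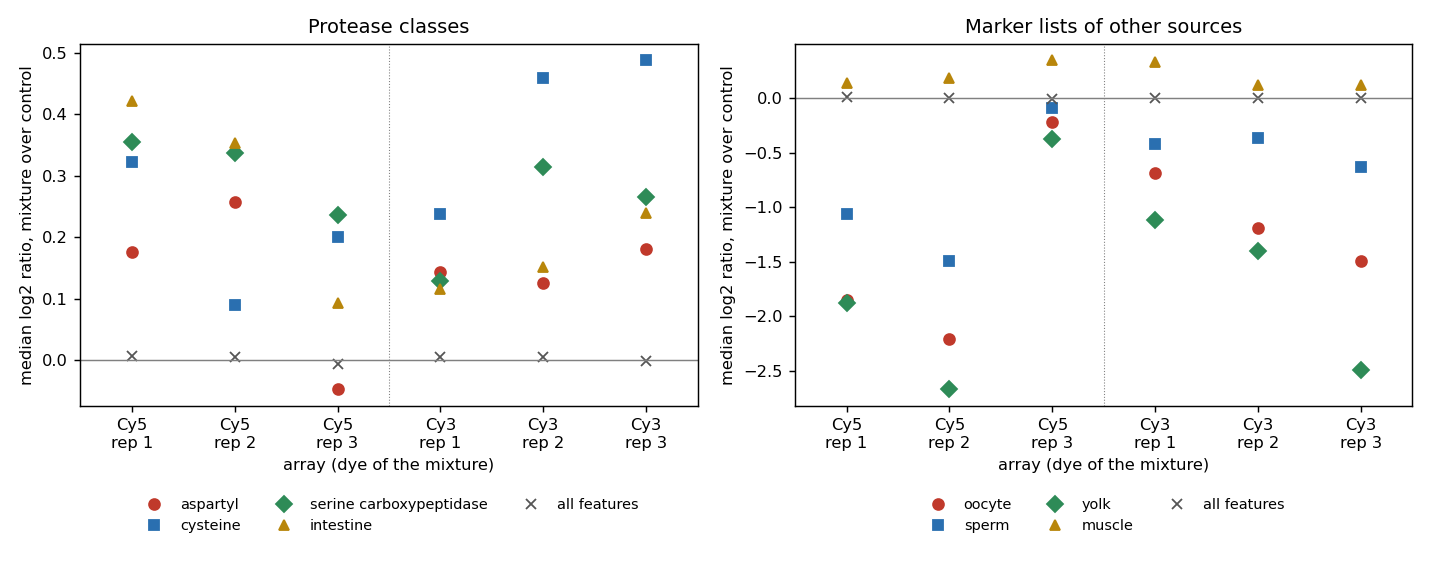
Median log2 ratio of mixture over control (y axis) of gene lists on each array (x axis, named by the dye of the mixture), the 3 protease classes and intestinal markers on the left, oocyte, sperm, yolk and muscle lists on the right, with the median of all features as crosses. The axes have different ranges, the protease medians reach at most 0.49, and the oocyte and yolk medians are nearest to 0 on mixture in Cy5 replicate 3.

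Of 17 intestinal markers, 6 were called higher and 1 lower, with a median ratio of 0.15. The share called was 41.2%, against 23.5% of the bright set, to which all 17 belong. Higher were ges-1, the gut esterase gene (0.55 ± 0.21), nhx-2, a sodium-proton exchanger gene (0.39 ± 0.22), vha-6, the intestinal subunit of the vacuolar proton pump (0.35 ± 0.15), and fat-5, gtl-1 and let-413. The desaturase gene fat-7 was lower (-0.66 ± 0.59). The median of the list was above 0 on 6 of 6 arrays, between 0.09 and 0.42. Muscle markers had 2 of 9 genes higher and a median of 0.20, hypodermis markers 2 of 7 higher and 1 lower and a median of -0.03, and neuron markers a median of 0.30 with none of 8 called by limma (5 above 0 at an unadjusted p under 0.05). Of the muscle list 22.2% were called and of the hypodermis list 42.9%, where 13.9% of all features were. At the unadjusted threshold no share of all features was counted. The part of these lists in the protease ratios was not tested either.

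Other proteases of the same catalytic types, which act mainly in the cytosol or in membranes, had no common direction. Of 23 measured, 2 were higher and 2 lower, with a median of -0.02. The share called, 17.4%, lay between the 13.9% of all features and the 23.5% of the bright set. The asparaginyl endopeptidase (legumain-like) gene lgmn-1, whose mammalian counterpart is a lysosomal enzyme, had a mean of 1.18 ± 0.99 (adjusted p = 0.0105). Its ratios were 0.76, 0.49 and 0.01 with the mixture in Cy5 and 1.38, 1.66 and 2.78 with the mixture in Cy3. The size thus differed between dye orientations, though the dye effect did not pass the limma test (adjusted p = 0.504). The calpain gene clp-4 had ratios between 0.41 and 0.94 and a mean of 0.73 ± 0.21 (adjusted p = 0.00207). The caspase gene ced-3 (-0.69 ± 0.49) and the presenilin gene hop-1 (-0.60 ± 0.35) were lower. The hop-1 probe was well above background in 2 mixture and 5 control channels, and so lies outside the bright set. The 23 genes spanned -0.69 to 1.18.

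Inhibitors of proteases were mostly below 0, with 1 of 9 higher, 2 lower and a median of -0.11. The share called was 33.3%, against 13.9% of all features and 23.5% of the bright set. The serpin gene srp-7 was higher (0.44 ± 0.12), and the serpin genes srp-1 (-0.36 ± 0.18) and srp-6 (-0.43 ± 0.23) were lower. The cystatin genes cpi-1 and cpi-2, whose products inhibit cysteine proteases, had means of -0.23 ± 0.18 (adjusted p = 0.0876) and 0.03 ± 0.24 (adjusted p = 0.88).

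The vacuolar proton pump, which acidifies lysosomes and the gut lumen, had 2 of 20 subunit genes higher, vha-5 (0.41 ± 0.27) and vha-6, and a median of 0.10. The share called, 10%, was close to the 11.7% of features higher in the bright set, to which all 20 genes belong. None was called lower by limma, and at an unadjusted p under 0.05 there were 5 genes above 0 and 1 (vha-18) below it. No share of all features was counted at that unadjusted threshold. Of 33 genes of lysosomal membrane proteins and other lysosomal hydrolases, 7 were higher and 1 lower, with a median of 0.17. The share called was 24.2%, against 13.9% of all features and 23.5% of the bright set. The largest difference was in asah-1, the acid ceramidase gene, with ratios of 0.74 to 1.56 and a mean of 1.13 ± 0.31 (adjusted p = 0.000653). The acid sphingomyelinase gene asm-2 (0.77 ± 0.55), the lysosomal membrane protein gene lmp-2 (0.70 ± 0.36), the Spinster-type transporter genes spin-2 (0.65 ± 0.39) and spin-1 (0.54 ± 0.35), and the acid alpha-glucosidase-related genes aagr-2 (0.49 ± 0.13) and aagr-1 (0.43 ± 0.31) were also higher. ncr-2, a Niemann-Pick type C homologue, was called lower (adjusted p = 0.0162). Its probe was well above background in 4 control channels and in no mixture channel, so only a bound can be given, at least 1.35-fold lower with the mixture. For this bound, a mixture signal dimmer than any detected probe of its array was replaced by that of the dimmest detected probe.

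**Figure D5:**
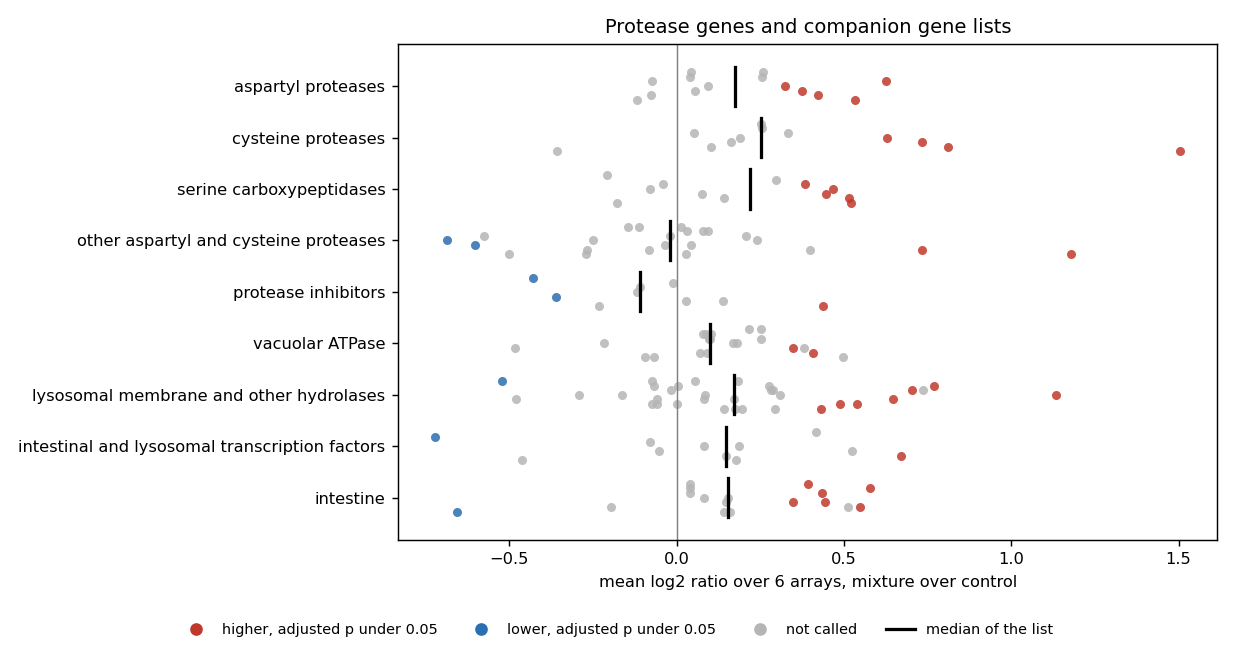
Mean log2 ratio of mixture over control over 6 arrays (x axis) for every gene of the protease classes and of the companion lists (rows), with called genes in colour and the median of each list as a black line. The medians of the 3 protease classes are 0.17, 0.25 and 0.22, against -0.02 for the other proteases, -0.11 for the inhibitors, 0.10 for the vacuolar proton pump, 0.17 for the lysosomal list, 0.15 for the transcription factors and 0.15 for the intestinal markers.

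Of 11 transcription factors of the intestine and of lysosomal genes, 1 was higher and 1 lower, with a median of 0.15. The share called, 18.2%, lay between the 13.9% of all features and the 23.5% of the bright set. elt-2, the main GATA factor of the intestine, had a mean ratio of 0.15 ± 0.21 (adjusted p = 0.344), and elt-7, another intestinal GATA factor, 0.08 ± 0.39 (adjusted p = 0.702). hlh-30, the counterpart of the mammalian lysosomal regulator TFEB, had 0.42 ± 0.38 (adjusted p = 0.0817), and pqm-1 0.52 ± 0.56 (adjusted p = 0.0988). mxl-3, a helix-loop-helix factor of lysosomal genes, was below 0 on 6 of 6 arrays, with -0.46 ± 0.40 (adjusted p = 0.0739). pha-4, a forkhead factor of the pharynx and gut, was higher (0.67 ± 0.21, adjusted p = 0.00675), and end-3, a GATA factor of the embryonic endoderm, was lower (-0.72 ± 0.50, adjusted p = 0.0219).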

How the data were processed

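The scanner files deposited by the authors give each spot's intensity by channel and its percent of saturated pixels, per the file headers not normalized. The authors also deposited a table of ratios, taken here as log2 and used as an alternative. It ran as mixture over control, its column medians were -0.00313 to 0.000102, and its slopes on the scanner log2 ratios of Cy5 over Cy3 were 0.568 to 0.62 with the mixture in Cy5 and -0.606 to -0.691 with the mixture in Cy3, so its exact scale is unknown. Per the submitters' processing notes limma 3.2.3 was used, and the study's methods name loess and Aquantile normalization. Nothing in the sources used here gives the background correction or what the spot flags mean, and no spot was left out.

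Foreground medians were corrected with normexp (offset 50), normalized by loess within arrays (control spots at weight 0) and Aquantile between arrays (limma 3.58.1, R 4.3.3), and turned to mixture over control. A model with mixture and dye effects was fitted to all 18999 features with lmFit and eBayes, with two-sided Benjamini-Hochberg adjustment over all of them at 0.05. It gave every adjusted p, and each error is an SD over the 6 arrays, whose number limits the precision. A spot was well above background if it exceeded the local background by over 2 SDs. Of 22490 probes, 21415 were named, through the files' sequence names and the RefSeq table of WBcel235 (used for names and gene order only) or, for 33, the platform table, and for 35 the names disagreed.

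Members, lists and alternatives were chosen with earlier results of these data known. Genes shown array by array, or by lowest, median and highest, are up to 5 called genes of each class by smallest p, asp-1, asp-3, asp-4, cpr-1, cpr-3, cpr-4, cpr-5, cpr-6 and cpl-1, and the 2 genes of each class nearest to the threshold among those not called. On simulated arrays of 18999 features, of which 200 were changed, the fit recovered 28% of genes changed by 0.5 on the log2 scale. It recovered 92% of those changed by 1 and 100% of those changed by 2.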

Additional observations from a re-analysis of the deposited data

Results flagged for a closer look

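Single arrays stood apart from the other 5 for 5 protease genes, by a rule that chance meets in about 1 of 20 groups. asp-12 had a log2 ratio of 1.8758 on mixture in Cy5 replicate 2, with the others at 0.16 to 0.68. ctsa-1.2 had 0.8356 on mixture in Cy5 replicate 3, with the others at 0.39 to 0.55, and ctsa-1.1 had 0.1213 on the same array, with the others at -0.31 to -0.21. ctsa-2 had -0.2158 on mixture in Cy3 replicate 3, with the others at 0.32 to 0.53. pcp-5 had -0.5857 on mixture in Cy5 replicate 1, with the others at -0.20 to -0.02, on a probe not well above background. Of the 5, asp-12 and ctsa-1.2 were called, and both stayed called without the array named.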

How the results depend on the processing

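None of the 14 called genes changed sign under the alternatives, and they were called in 9 (asp-12) to 23 (cpr-3) of 24. The models with a block or without a dye effect and the methods' linear model kept the mean ratio, so they could not change its sign. Of the 24 genes not called, 13 changed sign in some alternative and 11 were called in some, cpl-1 most often (5 alternatives, lower each time). As reported, 2636 features, 5 aspartyl proteases, 4 cysteine proteases and 5 serine carboxypeptidases were called, and the following counts keep this order. Background subtraction gave 567, 0, 2 and 0. Median centring gave 4118 (679 higher, 3439 lower), 2 (both lower), 3 (cpl-1 lower) and 2 (both lower). The authors' deposited values gave 2318, 6, 2 and 6 (ctsa-1.1 lower). Print-tip loess and a model with no dye effect each left 3 aspartyl proteases. The slide series as a block gave 4308 features and 7 cysteine proteases (cpl-1 lower). Within the later series the counts were 891, 1, 2 and 2, and within the shared scan day 3 aspartyl proteases were called. The methods' linear model, without the study's removal of outliers, called 56, 0, 0 and 0 after Benjamini-Hochberg adjustment, and 583, 0, 1 and 1 at an unadjusted p under 0.01. Using only spots of flag 3, an alternative chosen after seeing the data because the commonest flag differed between arrays, called 1708 features. Leaving out each array in turn gave 535 (without mixture in Cy3 replicate 3) to 4609 (without mixture in Cy5 replicate 3) features. It gave 1 to 6 aspartyl proteases, 2 to 7 cysteine proteases and 2 to 5 serine carboxypeptidases, highest without mixture in Cy5 replicate 3. The 7 included cpl-1, called lower. The cause was not tested in any of these cases.

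With the replicate number as a block the counts were 950, 1, 2 and 2. The numbers did not pair the arrays: deviations of same-numbered arrays correlated at -0.107, -0.00647 and -0.233 across genes. The 6 arrays carried 5 distinct mixture extracts, and averaging the 2 arrays of the shared extract left 4, 4 and 5 genes called, with asp-6 the one lost. Differences of about 0.5 on the log2 scale were often missed in simulation. There 200 features were changed, while 2636 were called here, so that share recovered does not carry over to these data. A gene not called may still have differed.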
